A study of Mus musculus with 8 samples.

Results

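In the cells of mouse long bones, 10 genes of the Wnt pathway were followed: the 6 ligand genes Wnt4, Wnt5a, Wnt5b, Wnt10b, Wnt11 and Wnt16, and the 4 response genes Axin2, Lef1, Tcf7 and Nkd2. They were found by symbol, and each symbol matched a single gene in all 8 count matrices, giving 10 genes of the 32285 listed. Single cells were taken from the femurs and tibiae of female mice at 7 or 13 weeks of age, with 2 mice per genotype and age and 1 library per mouse. The study describes the mice of each age as pairs of mutant and control sisters, without saying which numbered mice were sisters. All mice carried the floxed alleles Sox4fl/fl, Sox11fl/fl and Sox12fl/fl. The controls carried nothing more, and the SOXCOsxCre mice, called mutants here, also carried OsxCre, in which an Osterix promoter drives Cre in osteoblast-lineage cells and tetracyclines keep it off. It was held silent with doxycycline food during the first weeks of life. The controls lacked Cre, so an effect of the transgene itself and an effect of losing the SOXC genes (Sox4, Sox11 and Sox12) cannot be told apart in these libraries. Soft tissue, periosteum and flushed marrow were discarded, the bone was digested, and haematopoietic cells were depleted with antibodies and magnetic beads.

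Wnt ligands are secreted, lipid-modified proteins that bind Frizzled receptors. In the canonical branch, a receptor complex with Lrp5 or Lrp6 blocks the breakdown of β-catenin, which then partners with TCF/LEF proteins in the nucleus and switches on target genes. In bone, this branch favours osteoblast formation over other fates and restrains osteoclast formation, while other ligands, Wnt5a being the prototype, also signal without β-catenin. Axin2 is a scaffold of the β-catenin destruction complex and a widely used readout of the canonical branch. Lef1 and Tcf7 encode DNA-binding partners of β-catenin that can themselves be induced, and Nkd2 encodes a Dishevelled-binding inhibitor of the pathway.

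After filtering, 59629 cells remained, from 6410 to 8753 per library, out of libraries with 81894604 to 156090286 unique molecular identifiers (UMIs, each counted once per captured RNA molecule). In each group, the library numbered 1 was deeper (median 11008 to 12737 UMIs per cell) than the library numbered 2 (6746 to 7889). Any pair of libraries shared 10 to 26 cell barcodes over the 28 pairs. Clustering placed 47852 cells in 13 types. The SOXC and Wnt pathway genes were kept out of the clustering. The types were named from marker genes: Lepr+ mesenchymal stem cell-like (Lepr+ MSC-like), Lepr+ osteoprogenitor-like (Lepr+ OP-like), preosteoblast-like (preOB-like), osteoblast-like (OB-like), growth plate chondrocyte-like (GPC-like), pericyte-like, endothelial-like and 4 haematopoietic types, with 2 further types called by their leading genes, Col10a1-high chondrocytes and Aspn-high stromal cells. Sox4 was lower in every mutant than in every control, and called, in the Lepr+ MSC-like (log2 fold change -1.29), Lepr+ OP-like (-1.42), preOB-like (-1.37) and OB-like cells (-1.60), and it was not called in Aspn-high stromal cells, Col10a1-high chondrocytes, GPC-like, pericyte-like or endothelial-like cells. Sox12 was called lower in Lepr+ OP-like (-1.71), preOB-like (-2.58) and OB-like cells (-2.04), but not in Lepr+ MSC-like cells (-0.95). Sox11 was too low to test in the Lepr+, preOB-like and OB-like cells.

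Levels are given as CPM, the UMIs of a gene per 1000000 UMIs of all genes in the cells of 1 type and 1 mouse, scaled by TMM factors. Of the 90 combinations of a member with 1 of the 9 non-haematopoietic types, 57 had enough UMIs to be tested, 35 for ligands and 22 for response genes. All 10 members were tested in OB-like cells, 9 in preOB-like cells, 8 each in Lepr+ MSC-like cells, Lepr+ OP-like cells and Col10a1-high chondrocytes, 7 in GPC-like cells, 4 in Aspn-high stromal cells, 3 in endothelial-like cells and 0 in pericyte-like cells.

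In the GRCm38 assembly, the ligand genes lie at chr4:137277489-137299726 on the plus strand (Wnt4), chr14:28504750-28527448 on the plus strand (Wnt5a), chr6:119432531-119544347 on the minus strand (Wnt5b), chr15:98770712-98778150 on the minus strand (Wnt10b), chr7:98835112-98855195 on the plus strand (Wnt11) and chr6:22288227-22298522 on the plus strand (Wnt16). The response genes lie at chr11:108920349-108950783 on the plus strand (Axin2), chr3:131110471-131224356 on the plus strand (Lef1), chr11:52252371-52283014 on the minus strand (Tcf7) and chr13:73818534-73847631 on the minus strand (Nkd2). All 10 are protein-coding. Lef1 and Tcf7 each overlap another annotated gene on the same strand (Gm42449 and Gm26551), and reads in the shared stretch could be assigned to either or to neither.

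The promoter letters of the 4 members called without the replicate block in a comparison further on are shown, as the 250 bases before an annotated start in RefSeq on GRCm38.p6, each read along the strand of its gene. Of the 10 members, 9 had at least 1 promoter entry, 16 entries in all. Capitals mark the letters CTTTGA or TCAAAG, the core that TCF/LEF proteins bind read on either strand, and ACAAT or ATTGT, a core that SOX proteins bind. The windows lie at chr6:22287977-22288226 (Wnt16), chr7:98834862-98835111 (Wnt11, the first of its 2 starts), chr3:131110047-131110296 and chr3:131156044-131156293 (Lef1, the first and last of its 4 starts) and chr13:73847632-73847881 (Nkd2).
Wnt16: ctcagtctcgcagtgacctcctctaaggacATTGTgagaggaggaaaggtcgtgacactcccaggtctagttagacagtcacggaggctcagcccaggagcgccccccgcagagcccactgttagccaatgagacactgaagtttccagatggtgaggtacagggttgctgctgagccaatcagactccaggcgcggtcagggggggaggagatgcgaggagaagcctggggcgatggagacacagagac
Wnt11, first start: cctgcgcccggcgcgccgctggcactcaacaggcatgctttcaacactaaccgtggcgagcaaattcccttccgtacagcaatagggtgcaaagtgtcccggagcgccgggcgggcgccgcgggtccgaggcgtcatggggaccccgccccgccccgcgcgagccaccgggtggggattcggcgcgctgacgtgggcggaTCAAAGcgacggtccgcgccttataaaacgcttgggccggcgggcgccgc
Lef1, first start: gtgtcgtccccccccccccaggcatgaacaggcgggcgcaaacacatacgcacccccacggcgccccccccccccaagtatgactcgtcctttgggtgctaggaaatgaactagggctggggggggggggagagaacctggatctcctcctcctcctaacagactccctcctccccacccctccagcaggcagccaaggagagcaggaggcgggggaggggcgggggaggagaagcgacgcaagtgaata
Lef1, last start: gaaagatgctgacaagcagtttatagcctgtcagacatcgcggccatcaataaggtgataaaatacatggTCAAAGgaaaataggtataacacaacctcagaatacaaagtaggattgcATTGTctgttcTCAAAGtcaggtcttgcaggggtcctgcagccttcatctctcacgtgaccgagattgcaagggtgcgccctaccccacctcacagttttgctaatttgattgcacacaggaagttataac
Nkd2: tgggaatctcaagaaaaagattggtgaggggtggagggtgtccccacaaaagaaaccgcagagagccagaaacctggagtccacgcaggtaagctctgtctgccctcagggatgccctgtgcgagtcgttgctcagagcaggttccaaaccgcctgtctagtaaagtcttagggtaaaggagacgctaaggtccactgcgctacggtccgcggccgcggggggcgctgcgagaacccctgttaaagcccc
Wnt16 held the SOX letters with their first base 220 bases before the start and no TCF/LEF letters. Wnt11 held the TCF/LEF letters 50 bases before its first start. The last start of Lef1 had TCF/LEF letters at 180 and 120 bases and SOX letters at 131 bases before it, whereas its first start and the Nkd2 promoter held neither. Among all 32851 mouse promoters of the same length, 13.8% held the TCF/LEF letters and 27.7% the SOX letters, so 1 match or none in a window of this length is common. A match describes the letters and shows neither binding nor regulation. Of the other promoter entries of the members, only the third start of Wnt5b held a match (TCF/LEF letters, 71 bases before it).

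The ligands differed in where they were found. In controls (mean ± SD, n = 4 mice), Wnt4 was at 211 ± 11.7 CPM in preOB-like cells, followed by Col10a1-high chondrocytes (163 ± 27.0), GPC-like cells (151 ± 39.5) and OB-like cells (144 ± 29.1). The mean of preOB-like cells lay more than the summed SDs above the next type, and the following 3 types overlapped within 1 SD. Lepr+ OP-like cells (98.4 ± 10.2 CPM) and Lepr+ MSC-like cells (87.0 ± 28.0 CPM) overlapped each other, and all other types were at 20.6 CPM or less. Wnt4 was thus measured in stem cell-like, osteogenic and cartilage cells alike, at 2.03 CPM in erythroid cells. Wnt5a was at 117 ± 25.8 CPM in Aspn-high stromal cells, apart from Lepr+ OP-like cells (33.1 ± 5.84), which overlapped preOB-like cells (24.7 ± 3.54). GPC-like, Lepr+ MSC-like, Col10a1-high and pericyte-like cells overlapped one after another at 15.7 to 18.1 CPM, and OB-like cells had 7.31 ± 1.23 CPM of Wnt5a.

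Wnt5b, which is known from cartilage, was at 79.5 ± 45.4 CPM in Aspn-high stromal cells and 79.2 ± 8.32 CPM in Col10a1-high chondrocytes, which overlapped. GPC-like cells (44.3 ± 7.81 CPM) stood apart from both neighbours in the order, and Lepr+ OP-like (18.5), preOB-like (17.2), OB-like (14.3) and pericyte-like cells (14.1) overlapped. Wnt11 was at 46.2 ± 16.6 CPM in GPC-like cells and 45.7 ± 18.0 CPM in Col10a1-high chondrocytes, apart from the next type, Lepr+ MSC-like cells (13.9 ± 6.68), with 9.54 ± 4.80 CPM in Lepr+ OP-like cells, and at 2.31 CPM or less in the remaining types. Wnt10b, a canonical ligand that favours osteoblast formation, was low everywhere: 13.4 ± 11.4 CPM in Aspn-high stromal cells, 6.96 ± 2.51 in Col10a1-high chondrocytes, 4.69 ± 1.02 in OB-like cells and 4.57 ± 2.42 in GPC-like cells, with every neighbour in this order overlapping. Wnt16 was at 52.1 ± 47.1 CPM in Aspn-high stromal cells and 5.73 ± 1.02 CPM in preOB-like cells, which overlapped because of the spread of the former, then at 2.11 ± 1.11 CPM in Lepr+ OP-like cells and below 1 CPM in all others. No UMI of Wnt16 was found in the control GPC-like, pericyte-like, haematopoietic progenitor-like, granulocyte or monocyte-like or lymphoid-like cells.

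Of the response genes, Axin2 was at 27.3 ± 5.40 CPM in control Lepr+ OP-like cells, apart from Lepr+ MSC-like (11 ± 5.21), preOB-like (8.60 ± 2.63) and Aspn-high cells (8.03 ± 4.29), which overlapped one another. OB-like cells had 3.10 ± 0.338 CPM of Axin2 and GPC-like cells 1.00 CPM. Nkd2 was at 45.3 ± 9.65 CPM in Lepr+ OP-like and 44.7 ± 5.21 CPM in Lepr+ MSC-like cells, and overlapped onward through preOB-like (34.0 ± 24.9), Aspn-high (24.9 ± 15.6) and OB-like cells (23.2 ± 11.2). The large SD in the osteogenic types goes with the age of the mice, described further on. In both chondrocyte types Nkd2 was at 1.61 CPM or less.

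Tcf7 was highest in OB-like cells (33.8 ± 1.55 CPM) and next in preOB-like cells (25.5 ± 4.66 CPM). Each stood apart from the next type in the order, and Tcf7 was at 7.59 ± 5.51 CPM or less elsewhere. Lef1 was at 290 ± 256 CPM in lymphoid-like cells (n = 3), where it is a known lymphocyte factor, but only 417 such cells were found in all mice. Among the other types, Lef1 was at 30.1 ± 8.93 CPM in GPC-like cells, apart from Lepr+ OP-like cells (13.0 ± 5.65), which overlapped preOB-like (8.70), endothelial-like (7.87), Col10a1-high (7.60) and Lepr+ MSC-like cells (5.40). OB-like cells had 1.45 ± 0.733 CPM of Lef1. These levels were read in clusters built from the same cells and carry no test.

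**Figure D1:**
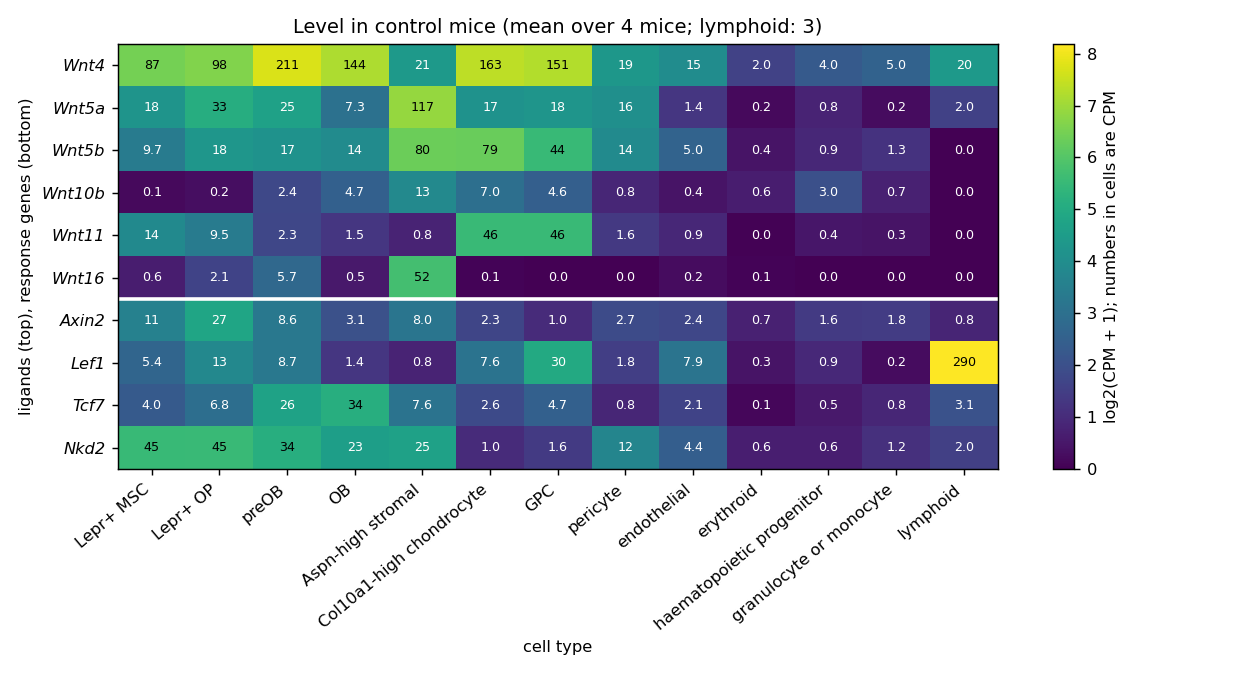
Mean level of each of the 10 members (one per line) in each of the 13 cell types (one per column) in the 4 control mice, in CPM on a colour scale that is logarithmic. Wnt4 is high across osteogenic and cartilage types (144 to 211 CPM), Wnt16 mainly in Aspn-high stromal cells (52.1 CPM), Axin2 in Lepr+ OP-like cells (27.3 CPM) and Tcf7 in OB-like cells (33.8 CPM).

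Set beside each other, the summed level of the 6 ligands was 312 ± 40.5 CPM in control Col10a1-high chondrocytes and 264 ± 48.4 CPM in GPC-like cells, where the 4 response genes summed to 13.6 ± 1.37 and 37.5 ± 7.94 CPM. For Lepr+ OP-like cells, the ligands summed to 162 ± 14.3 CPM and the response genes to 92.1 ± 19.4 CPM. PreOB-like cells had 264 ± 6.24 CPM of ligands and 76.8 ± 29.1 CPM of response genes, OB-like cells 172 ± 28.3 and 61.5 ± 13.2 CPM, and Lepr+ MSC-like cells 129 ± 28.3 and 65.1 ± 3.32 CPM. The summed response level was thus lowest, among these types, in both cartilage types. Its mean was highest in Lepr+ OP-like cells, which overlapped preOB-like and OB-like cells within 1 SD. Wnt4 had the highest level of the 6 ligands in each of these types. The highest of the response genes by its mean was Nkd2 in both Lepr+ types, Tcf7 in OB-like cells and Lef1 in both cartilage types. In preOB-like cells it was Nkd2 in the 7-week controls and Tcf7 in the 13-week controls.

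The share of cells with at least 1 UMI depends on depth and on free RNA in the droplets, so erythroid cells, which should lack these genes, serve as the background, at a median of 28725 UMIs per cell. Over the cells of all 8 mice, Wnt4 was found in 54.4% of 2577 preOB-like cells (median 6272 UMIs) and 68.0% of 24680 OB-like cells (median 13255 UMIs), against 5.69% of 1441 erythroid cells. Wnt16 was found in 26.9% of 509 Aspn-high cells (95% exact binomial interval 23.1 to 31.0%, median 5479 UMIs), in 5.67% of preOB-like cells (4.80 to 6.63%) and in 1.03% of OB-like cells (0.907 to 1.16%), against 0.416% of erythroid cells (0.153 to 0.904%). By genotype, the Wnt16 share was 3.86% in control (2.84 to 5.11%) and 7.23% in mutant preOB-like cells (5.92 to 8.72%), and 0.613% in control (0.481 to 0.771%) and 1.42% in mutant OB-like cells (1.22 to 1.64%). In Aspn-high cells it was 13.8% of 174 control cells (9.04 to 19.8%) and 33.7% of 335 mutant cells (28.7 to 39.1%). In erythroid cells it was 0.227% in controls (0.0275 to 0.817%) and 0.716% in mutants (0.195 to 1.82%), so in both genotypes the interval of the OB-like share overlapped that of the background, which came from deeper cells. The Wnt16 shares in Col10a1-high chondrocytes (0.117%) and GPC-like cells (0.0495%) were no higher than in erythroid cells. All these intervals pool cells over mice. They cover counting error only, leave out the spread between mice and test no difference between genotypes. Of the 335 mutant Aspn-high cells, 166 came from replicate 2 of the 7-week mutants and 98 from replicate 1 of the 13-week mutants. The cells of the latter mouse had a median of 11923 UMIs. Lef1 was found in 30.8% of GPC-like cells and 9.45% of Lepr+ OP-like cells against 0.278% of erythroid cells, and Nkd2 in 26.4% of OB-like and 23.9% of Lepr+ MSC-like cells against 2.15%. Axin2, at 13.6% of Lepr+ OP-like cells, was in GPC-like cells (1.73%, median 16395 UMIs) no more frequent than in erythroid cells (1.80%).

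The first question was which members differed between SOXCOsxCre and control mice. Over both ages, Wnt16, a ligand known for its part in cortical bone mass and in restraining osteoclast formation, rose in the mutants in preOB-like and OB-like cells, and without the replicate block no other member passed the test in any of the 9 types. These were 2 of 57 tests (edgeR quasi-likelihood test, Benjamini-Hochberg adjustment over all genes tested in the type, 4 mice per genotype). Over all genes and types, 0.416% of tests were called, 1.38% in OB-like cells and 0.715% in preOB-like cells. With the replicate block, in which a control and a mutant of the same age and number form a pair, 7 of 57 were called, against 2.22% of all tests, and without a filter on low counts 6 of 89, against 1.12%. At an unadjusted p under 0.05 there were 16 of 57, against 6.36% of all tests. The median log2 fold change over all genes was -0.003. The members were chosen with earlier results of these data known, so their counts beside these shares are no independent support.

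In preOB-like cells, Wnt16 was at 5.89 and 7.12 CPM in the 7-week controls and at 20.2 and 21.0 CPM in the 7-week mutants. At 13 weeks, it was at 4.99 and 4.94 CPM in the controls and 11.7 and 9.48 CPM in the mutants. All 4 mutants lay above all 4 controls, and the lowest mutant was a 13-week mouse. The log2 fold change was 1.39 (SE 0.233, adjusted p = 0.0126), over 8 to 61 UMIs of Wnt16 per mouse. It was 1.67 (SE 0.302) at 7 weeks and 1.10 (SE 0.355) at 13 weeks, and the difference between the ages was -0.57 (SE 0.479, adjusted p = 1.0). Thinned to 3000 UMIs per cell, the share of preOB-like cells with a Wnt16 UMI was 1.76 and 2.61% in 7-week controls, 5.99 and 6.09% in 7-week mutants, 1.57 and 1.56% in 13-week controls and 2.05 and 2.23% in 13-week mutants (before thinning 5.46, 4.24, 12.5, 7.69, 3.38, 2.30, 6.27 and 2.83% in the same order). Thinning left out 9 to 107 cells per mouse that were shallower. After thinning, the mutants of each age lay above the controls of that age, at 13 weeks on 4 to 6 cells with a UMI per mouse. Both 13-week mutants then lay below a 7-week control (2.61%). Before thinning, a 13-week mutant (2.83%) lay below a 13-week control (3.38%). The call was lost without replicate 1 of the 7-week controls (adjusted p = 0.0595) and without replicate 1 of the 13-week mutants (adjusted p = 0.0702).

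In OB-like cells, Wnt16 was at 0.437 and 0.602 CPM in 7-week controls, 1.12 and 1.18 CPM in 7-week mutants, 0.345 and 0.532 CPM in 13-week controls and 1.68 and 1.12 CPM in 13-week mutants. Again no mutant overlapped a control, at levels well below those of preOB-like cells. The log2 fold change was 1.44 (SE 0.240, adjusted p = 0.0203), over 19 to 88 UMIs per mouse. Of the 7 clusters that made up the OB-like cells, the mutant mean of Wnt16 was higher in 6, with all mutants above all controls in 2. These clusters divide the cells of the same 8 mice, so agreement among them repeats no result. A cluster held as few as 11 UMIs of Wnt16 over all mice. The call was lost without any 1 of 5 of the 8 mice (adjusted p 0.0618 to 0.108): replicate 1 of each of the 4 groups and replicate 2 of the 7-week mutants. It was also lost with a mitochondrial limit of 5% (adjusted p = 0.0571). In erythroid cells, the background for free RNA, Wnt16 was at 0.0614 ± 0.0843 CPM in controls and 0.303 ± 0.271 CPM in mutants (SD, n = 4 mice), on 0 to 2 UMIs per mouse, and its part in the OB-like difference was not tested.

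The levels of markers of neighbouring types are given beside this result. In preOB-like cells, the summed level of the 15 OB markers was 21500 to 36500 CPM in controls and 32000 to 64400 CPM in mutants, and that of the 14 preOB markers 6690 to 8130 CPM in controls and 5840 to 6640 CPM in mutants, with none of either list at 0. The OB markers overlapped between the genotypes and the preOB markers did not. The 13 markers of Sca1+ mesenchymal stem cells, with Ly6a, Pi16 and Dpp4 among them, summed to 51.7 to 86.3 CPM in controls and 63.4 to 83.5 CPM in mutants, with 3 to 8 of them at 0 and Dpp4 at 0 in every mouse. Aspn, the leading gene of the stromal type with the highest Wnt16 level, was at 2.85 to 72.1 CPM (median 29.7) in control and 10.6 to 95 CPM (median 26.4) in mutant preOB-like cells. The stromal gene Col3a1 was at 267 to 1770 CPM (median 1060) in control and 421 to 2260 CPM (median 1590) in mutant preOB-like cells, and Postn at 724 to 1750 CPM (median 954) and 567 to 874 CPM (median 780). In OB-like cells, Col3a1 was at 13.7 to 40.3 CPM (median 24.6) in controls and 28.2 to 86.4 CPM (median 77.2) in mutants, and Postn at 16.7 to 93.8 CPM and 9.30 to 29.7 CPM, with Aspn at 1.01 CPM or less. Col3a1 thus had the higher median in mutants of both types and Postn the lower. The part of these markers in the Wnt16 difference was not tested.

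In Aspn-high stromal cells, Wnt16 was at 84.1 and 25.2 CPM in 7-week controls, 73.1 and 119 CPM in 7-week mutants, 0 and 98.9 CPM in 13-week controls and 161 and 73.2 CPM in 13-week mutants. The genotypes overlapped (log2 fold change 1.01, SE 0.648, adjusted p = 0.785). These values rest on 24 to 166 such cells and 0 to 175 UMIs of Wnt16 per mouse, and the spread within a group was wide, with 0 and 32 UMIs in the 13-week controls. In Lepr+ OP-like cells, Wnt16 had 1 to 5 UMIs per mouse and was too low to test.

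**Figure D2:**
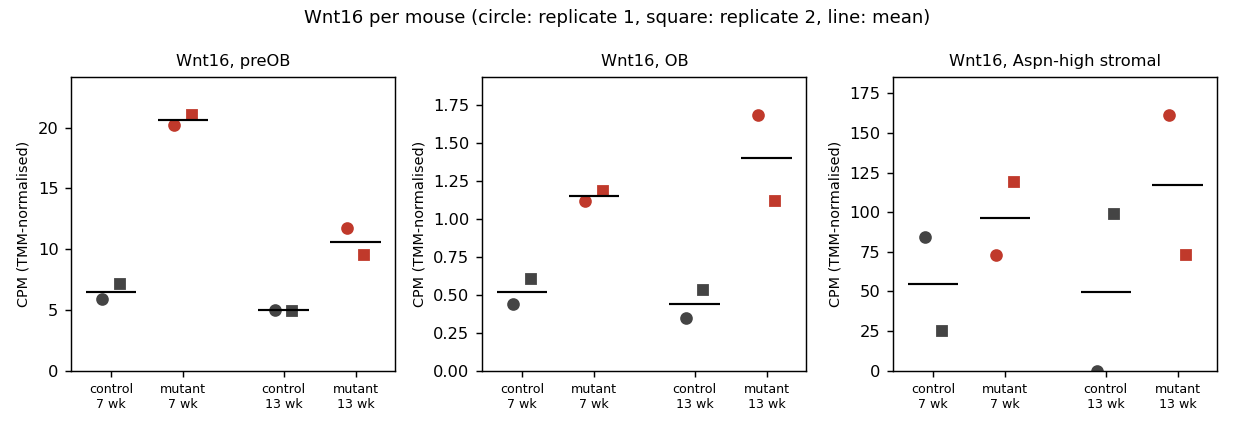
Wnt16 level (CPM) of each mouse in preOB-like, OB-like and Aspn-high stromal cells, by genotype and age, with a point per mouse and a line at the mean. In preOB-like and OB-like cells the 4 mutants lie above the 4 controls, and in Aspn-high cells the groups overlap, with a 13-week control at 0.

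Wnt4 differed in direction between the early and the mature end of the osteogenic types, but with all 8 mice and no pairing it did not pass the test in either, and it passed in both with the replicate block. In Lepr+ OP-like cells, Wnt4 was at 106 and 88.7 CPM in 7-week controls, 135 and 166 CPM in 7-week mutants, 90.7 and 108 CPM in 13-week controls and 129 and 123 CPM in 13-week mutants. Every mutant lay above every control (log2 fold change 0.50, SE 0.144, adjusted p = 0.178 without the replicate block and 0.0112 with it). In OB-like cells, Wnt4 was at 179 and 148 CPM in 7-week controls, 135 and 131 CPM in 7-week mutants, 108 and 142 CPM in 13-week controls and 75.5 and 109 CPM in 13-week mutants. The mutant was lower in all 4 same-numbered pairs, but the genotypes overlapped, also within the 13-week mice (log2 fold change -0.37, SE 0.147, adjusted p = 0.361 without the block and 0.00614 with it). The mutant mean was lower in all 7 OB-like clusters, which hold cells of the same mice.

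In Lepr+ MSC-like cells, Wnt4 was at 91.3 and 86.2 CPM in 7-week controls, 164 and 185 CPM in 7-week mutants, 51.2 and 119 CPM in 13-week controls and 108 and 119 CPM in 13-week mutants. Replicate 2 of the 13-week controls reached the level of the 13-week mutants, and the test was not passed (log2 fold change 0.70, SE 0.212, adjusted p = 0.409). Without that control, the log2 fold change was 1.07. That fit dropped the control nearest the mutants and left a lone mouse at 51.2 CPM in its group, so it is no support for a difference. The study listed Wnt4 with the genes that rose most in its mutant Lepr+ MSCs. Its tests compared single cells, whereas the mice are the replicates here. In preOB-like cells, Wnt4 ranged from 194 to 220 CPM in controls and from 158 to 223 CPM in mutants (log2 fold change -0.07, SE 0.154, adjusted p = 0.962).

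The replicate block raised the share called over all genes to 3.36% in Lepr+ OP-like and 8.66% in OB-like cells. Besides those of Wnt16 and Wnt4, the calls it gave were Lef1 in Lepr+ OP-like cells and Wnt5a and Tcf7 in OB-like cells. The block also takes up the difference in depth between the libraries numbered 1 and 2. Wnt5a was at 8.06 and 6.20 CPM in OB-like cells of 7-week controls, 9.63 and 8.11 CPM in 7-week mutants, 8.64 and 6.33 CPM in 13-week controls and 12.8 and 10.4 CPM in 13-week mutants. Each mutant exceeded the control of its age and number (log2 fold change 0.47, SE 0.139, adjusted p = 0.174 without the block and 0.00606 with it).

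Tcf7 was at 35.9 and 33.5 CPM in OB-like cells of 7-week controls, 32.8 and 31.9 CPM in 7-week mutants, 32.3 and 33.4 CPM in 13-week controls and 26.7 and 25.5 CPM in 13-week mutants, lower in the mutant of all 4 pairs (log2 fold change -0.22, SE 0.0832, adjusted p = 0.334 without the block and 0.0432 with it). Lef1 was at 11.3 and 20.6 CPM in Lepr+ OP-like cells of 7-week controls, 20.2 and 23.4 CPM in 7-week mutants, 7.12 and 12.9 CPM in 13-week controls and 16.4 and 23.5 CPM in 13-week mutants. It was higher in the mutant of all 4 pairs, with overlap between the genotypes (log2 fold change 0.75, SE 0.253, adjusted p = 0.287 without the block and 0.0437 with it).

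**Figure D3:**
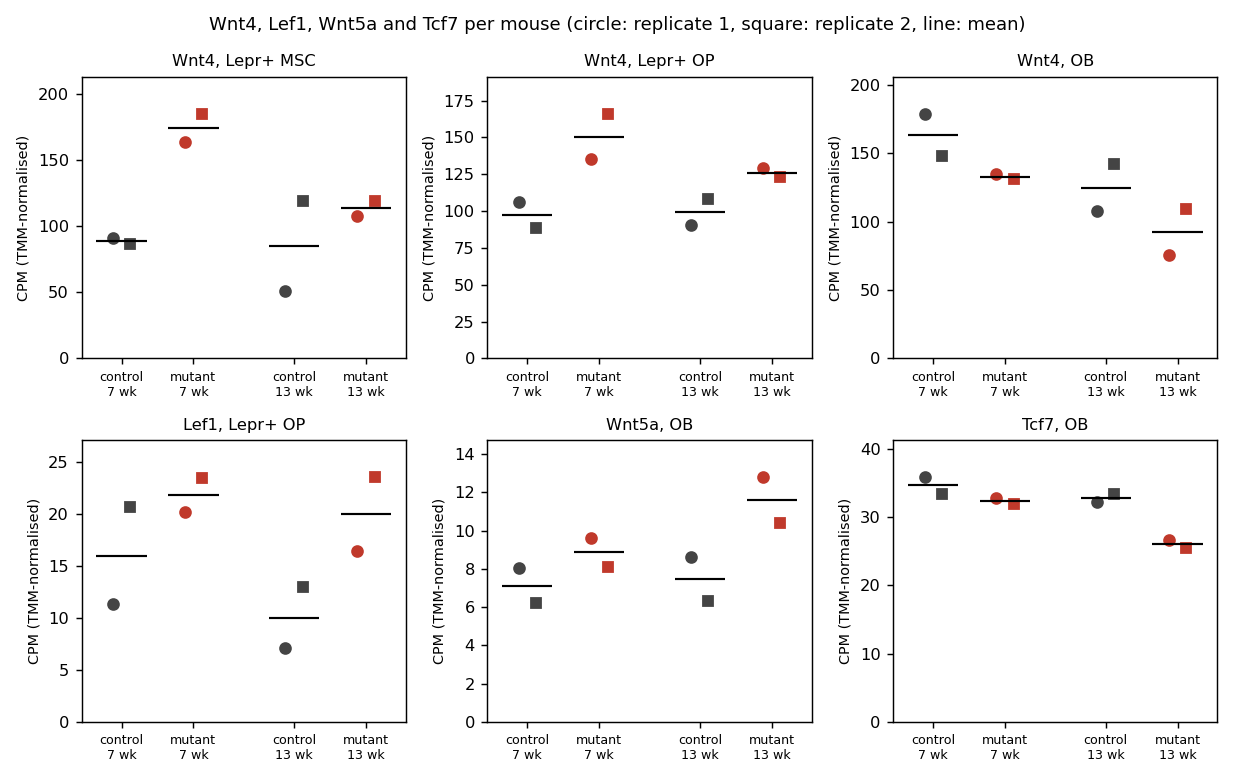
Level (CPM) per mouse, by genotype and age, of Wnt4 in Lepr+ MSC-like, Lepr+ OP-like and OB-like cells, of Lef1 in Lepr+ OP-like cells and of Wnt5a and Tcf7 in OB-like cells, with a point per mouse and a line at the mean. Wnt4 is higher in mutants in Lepr+ OP-like cells and lower in the mutant of each same-numbered pair in OB-like cells, and one 13-week control reaches the mutants in Lepr+ MSC-like cells.

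Among ligands not called with or without the block, Wnt11 in Lepr+ MSC-like cells was at 7.94 to 23.2 CPM in controls and 4.76 to 6.56 CPM in mutants, without overlap (log2 fold change -1.21, SE 0.319, adjusted p = 0.331), over 12 to 48 UMIs per mouse. It was also lower in Lepr+ OP-like cells in the mutant of all 4 pairs (log2 fold change -0.96, SE 0.363, adjusted p = 0.393). Wnt5a in Aspn-high cells was at 89.6 to 140 CPM in controls and 37.7 to 100 CPM in mutants (log2 fold change -1.23, SE 0.309, adjusted p = 0.16), with 9 to 54 UMIs per mouse. Without replicate 2 of the 13-week controls, which left a lone mouse in that group, the log2 fold change was -1.39. In these cells the 13 Sca1+ markers summed to 2240 to 4920 CPM in controls and 1040 to 2110 CPM in mutants, and their part in the Wnt5a values was not tested. Wnt5b and Wnt10b were not called in any type for genotype, with log2 fold changes from -0.02 to 0.77 for Wnt5b and from -0.11 to 0.90 for Wnt10b. In preOB-like cells, Wnt10b was at 1.78 to 3.60 CPM in controls and 3.20 to 6.25 CPM in mutants. It met the filter on low counts there mainly through the mutants, so its value in that type is no support for a difference.

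Axin2 was not called for genotype in any of the 5 types where it could be tested. Where it was highest, in Lepr+ OP-like cells, it was at 34.4 and 28.4 CPM in 7-week controls, 30.6 and 18.4 CPM in 7-week mutants, 24.0 and 22.4 CPM in 13-week controls and 14.9 and 22.9 CPM in 13-week mutants (log2 fold change -0.31, SE 0.208, adjusted p = 0.802). Its log2 fold change was between -0.33 and 0.14 in these 5 types. Nkd2 was at 37.0 to 48.3 CPM in control and 51.4 to 78.2 CPM in mutant Lepr+ MSC-like cells, without overlap but short of the threshold (log2 fold change 0.45, SE 0.155, adjusted p = 0.527). Median log2 fold changes of the members tested in a type lay from -0.02 to 0.77 for ligands and from -0.44 (the 1 gene tested in endothelial-like cells) to 0.43 for response genes.

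**Figure D4:**
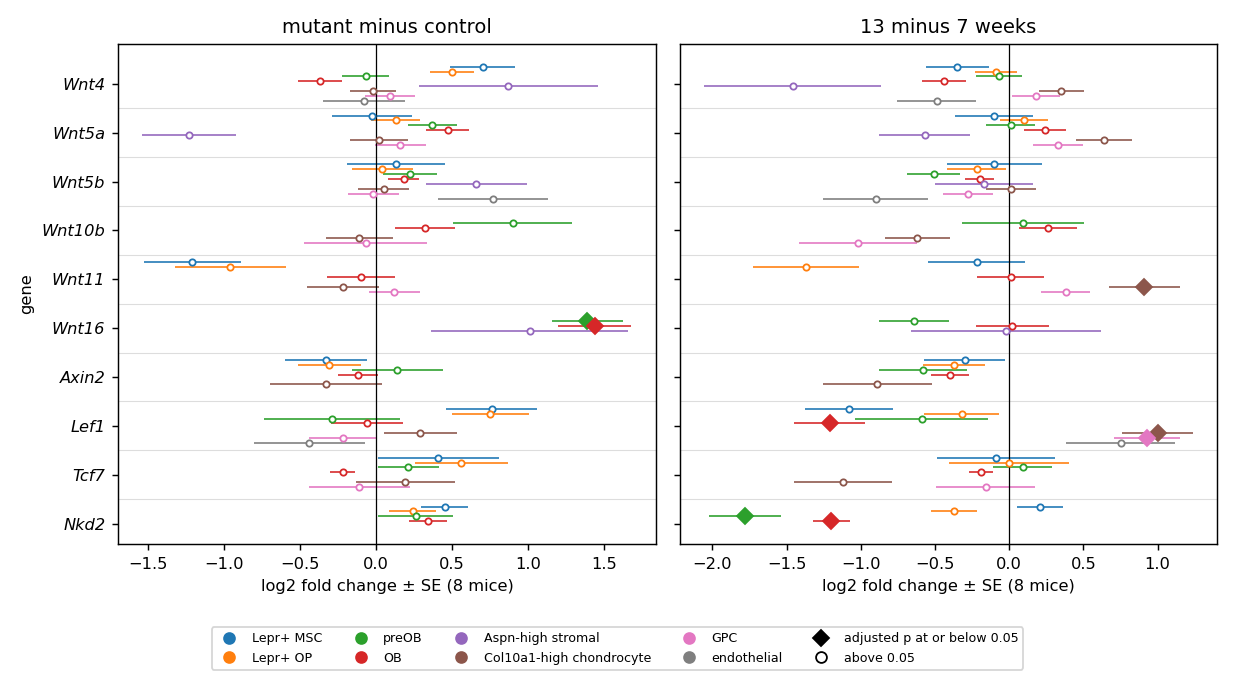
Log2 fold change for each member and cell type tested, with bars of 1 SE. The left panel shows mutants over controls, both ages together, and the right panel 13 over 7 weeks, both genotypes together. The 2 called values of the left panel are Wnt16 at 1.39 in preOB-like cells and at 1.44 in OB-like cells. The right panel holds the 6 values called for age, described further on. The pericyte-like type has no member high enough to test.

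The second question was whether the genotype difference depended on age. By edgeR, 0 of 57 differences between the ages were called, with 0% called over all genes and types, and 3 had an unadjusted p under 0.05, against 1.79% of all tests. DESeq2 called 0 as well, but its share called over all genes is not given here. With the replicate block the members had 0 calls, against 0.00864% of all tests, and without a filter on low counts 0 of 89, against 0.122%. The 3 were Wnt5a in Lepr+ OP-like cells (1.01, SE 0.323) and in Col10a1-high chondrocytes (1.01, SE 0.381) and Lef1 in endothelial-like cells (1.65, SE 0.732), each with an adjusted p of 1.0. In Lepr+ OP-like cells, Wnt5a was at 39.7 and 36.1 CPM in 7-week controls and 32.6 and 25.9 CPM in 7-week mutants, but at 27.2 and 29.3 CPM in 13-week controls and 47.0 and 40.2 CPM in 13-week mutants. The mutants lay below the controls at 7 weeks and above them at 13 weeks.

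The third question was which members changed between 7 and 13 weeks in both genotypes together. Nkd2 fell in preOB-like and OB-like cells, Lef1 fell in OB-like cells but rose in Col10a1-high chondrocytes and GPC-like cells, and Wnt11 rose in Col10a1-high chondrocytes. These were 6 of 57 tests, against 2.3% of all tests called over the 9 types, 2.71% in preOB-like cells, 1.93% in OB-like cells, 6.07% in Col10a1-high chondrocytes and 3.2% in GPC-like cells. At an unadjusted p under 0.05 there were 23 of 57, against 14.1% of all tests. Without a filter on low counts, 13 of 89 were called, against 3.34% of all tests. Whether mice of an age were also processed together is not given in the sources used here, so age and such a batch cannot be told apart.

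In preOB-like cells, Nkd2 was at 56.9 and 53.1 CPM in 7-week controls, 58.4 and 40.2 CPM in 7-week mutants, 6.77 and 19.2 CPM in 13-week controls and 19.1 and 19.0 CPM in 13-week mutants. All 7-week mice lay above all 13-week mice (log2 fold change -1.78, SE 0.242, adjusted p = 0.00135). In OB-like cells, Nkd2 was at 31.0, 34.4, 41.7 and 37.9 CPM in the 7-week mice and 11.8, 15.5, 20.7 and 15.3 CPM in the 13-week mice, controls first (log2 fold change -1.20, SE 0.125, adjusted p = 0.00596). Again the ages did not overlap, and in both genotypes the older mice were lower. The 13-week mean was lower in all 7 OB-like clusters of these same mice, without overlap in 6. Thinned to 3000 UMIs, the share of cells with an Nkd2 UMI was 8.86 to 14.4% at 7 weeks and 1.96 to 5.58% at 13 weeks in preOB-like cells (15 to 31.9% and 6.02 to 11% before thinning), and 8.20 to 10.6% and 3.13 to 4.59% in OB-like cells (27.0 to 47.0% and 13.2 to 24.4% before thinning). Both Nkd2 calls held under every alternative run. In Lepr+ OP-like cells, Nkd2 was also lower at 13 weeks (42.2 ± 7.22 CPM against 55.4 ± 3.06 CPM, n = 4 each, log2 fold change -0.37, adjusted p = 0.432), and in Lepr+ MSC-like cells the means were 48.8 ± 10.1 CPM at 7 and 56.7 ± 14.5 CPM at 13 weeks.

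Lef1 in OB-like cells was at 1.69, 2.38, 1.46 and 2.43 CPM in the 7-week mice and 0.862, 0.868, 0.689 and 1.00 CPM in the 13-week mice, controls first. The ages did not overlap (log2 fold change -1.21, SE 0.237, adjusted p = 0.0351), on 31 to 99 UMIs per mouse. In GPC-like cells, Lef1 was at 17.6, 32.0, 19.0 and 10.4 CPM at 7 weeks and 38.8, 32.2, 34.5 and 45.5 CPM at 13 weeks (log2 fold change 0.93, SE 0.222, adjusted p = 0.0431). In Col10a1-high chondrocytes, Lef1 was at 3.86, 6.74, 7.55 and 4.17 CPM at 7 weeks and 10.1, 9.67, 10.8 and 13.9 CPM at 13 weeks (log2 fold change 1.00, SE 0.238, adjusted p = 0.031). In both cartilage types the older mice lay above the younger, in GPC-like cells by a narrow margin. The OB-like call was lost without any 1 of the mice (adjusted p 0.0595 to 0.134) other than replicate 1 of either genotype at 7 weeks. The GPC-like call was lost without replicate 1 of the controls at either age, either 7-week mutant or replicate 2 of the 13-week mutants (0.0604 to 0.151), and with a mitochondrial limit of 5% (0.0826). The Col10a1-high call was lost without replicate 1 of the controls at either age, replicate 2 of the 7-week mutants or either 13-week mutant (0.0504 to 0.133). In Col10a1-high chondrocytes the call was also missed by DESeq2 (adjusted p = 0.0617).

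Wnt11 in Col10a1-high chondrocytes was at 26.5, 40.8, 36.3 and 15.5 CPM in the 7-week mice and 69.9, 45.8, 55.3 and 53.3 CPM in the 13-week mice, controls first. The ages did not overlap (log2 fold change 0.91, SE 0.238, adjusted p = 0.0427), and the call was lost without any 1 of 6 mice (adjusted p 0.0562 to 0.159): either control and replicate 2 of the mutants at 7 weeks, and replicate 1 of the controls and either mutant at 13 weeks. In GPC-like cells, Wnt11 was at 41.2 ± 6.98 CPM at 7 weeks and 53.6 ± 11.7 CPM at 13 weeks (log2 fold change 0.38, SE 0.166, adjusted p = 0.226). Markers moved along with age in these types. The 14 markers of hypertrophic chondrocytes summed to 29500 to 38000 CPM at 7 weeks and 17900 to 23900 CPM at 13 weeks in Col10a1-high cells, and the 16 GPC markers to 93500 to 99400 and 77600 to 92500 CPM in GPC-like cells. Their part in the Lef1 and Wnt11 differences was not tested.

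For age, the replicate block was another one: a 7-week and a 13-week mouse of the same genotype and number formed a pair, and such mice share a number but are of different ages. With it, 9 of the 57 tests were called for age, against 4.62% of all tests over the 9 types, 2.26% in Lepr+ OP-like cells and 15.5% in Col10a1-high chondrocytes. The 3 added calls were Wnt11 in Lepr+ OP-like cells and Tcf7 and Wnt5a in Col10a1-high chondrocytes. Wnt11 in Lepr+ OP-like cells was at 9.70, 16.0, 8.89 and 8.36 CPM at 7 weeks and 4.53, 7.95, 1.49 and 3.09 CPM at 13 weeks, opposite in direction to its change in Col10a1-high chondrocytes (log2 fold change -1.37, SE 0.355, adjusted p = 0.0875 without the block, -1.42 and 0.0323 with it), on 2 to 31 UMIs per mouse. Beside it, the 15 Lepr+ MSC markers in Lepr+ OP-like cells summed to 8810 to 11400 CPM at 7 weeks and 12900 to 15800 CPM at 13 weeks, and their part was not tested. Wnt11 met the filter on low counts in this type mainly through the 7-week mice, where it was higher. Its call there is thus no support for a change with age. Tcf7 in Col10a1-high chondrocytes was at 2.65 to 4.49 CPM at 7 weeks and 1.37 to 2.14 CPM at 13 weeks (adjusted p = 0.0613 without the block and 0.0383 with it). Wnt5a there was at 8.59 to 18.8 CPM at 7 weeks and 17.9 to 29.6 CPM at 13 weeks, with overlap (adjusted p = 0.0661 without the block and 0.0148 with it).

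**Figure D5:**
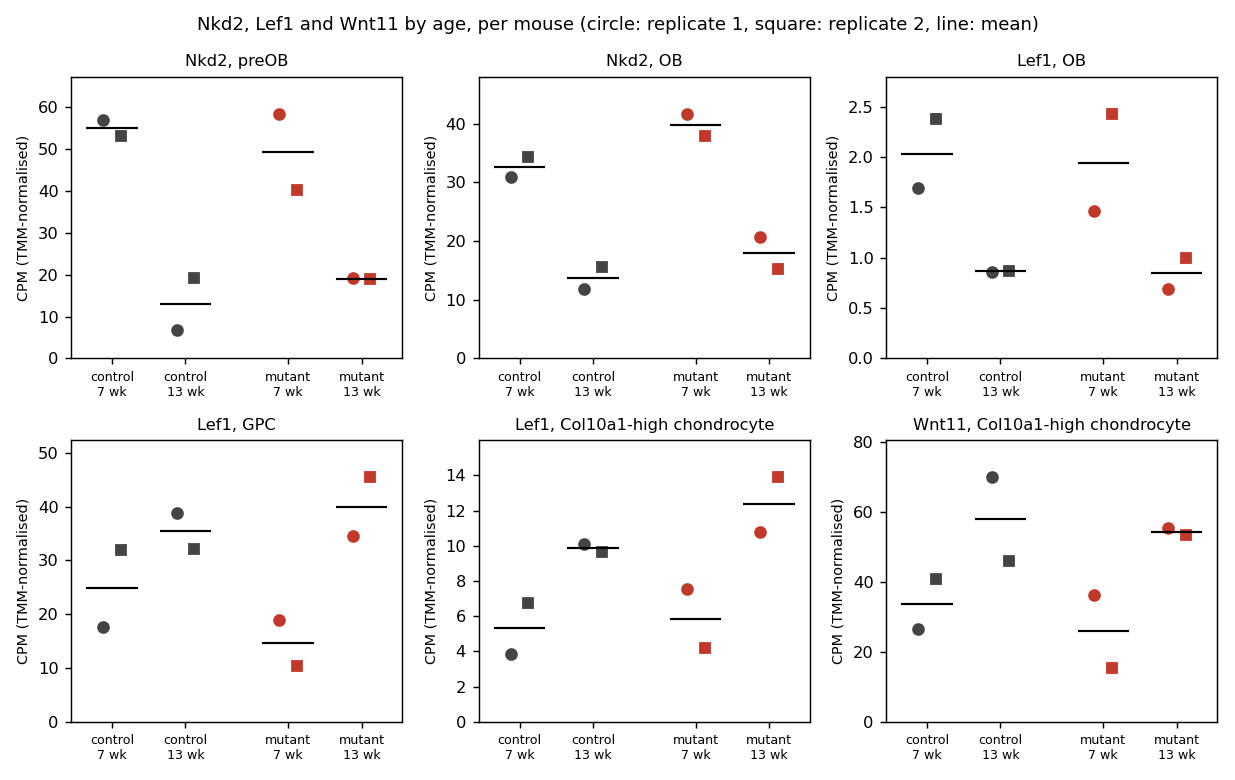
Level (CPM) per mouse at 7 and 13 weeks, by genotype, of the 6 combinations called for age: Nkd2 in preOB-like and OB-like cells, Lef1 in OB-like, GPC-like and Col10a1-high cells and Wnt11 in Col10a1-high cells, with a point per mouse and a line at the mean. Nkd2 falls in both osteogenic types, and Lef1 falls in OB-like cells while it rises in both cartilage types.

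The other genes of the pathway were read from a list of 84 in 7 roles, which gave 444 tests over the 9 types. For genotype, 9 were called, 0 higher and 9 lower in mutants, against 0.181% of all tests called higher and 0.234% called lower, and 52 had an unadjusted p under 0.05, against 6.36% of all tests. Of these 9 calls, 5 were of Sfrp1 or Sfrp2, which encode secreted decoys that bind Wnt ligands. The study had already named both among its downregulated genes, and the list was chosen with earlier results of these data known. Its counts beside the shares over all genes are thus no independent support. Sfrp2 was at 19.8 to 48.1 CPM in control and 1.99 to 9.13 CPM in mutant preOB-like cells, the same type in which Wnt16 rose (log2 fold change -2.52, SE 0.318, adjusted p = 0.00233). Sfrp2 was also lower in OB-like (-2.13) and Lepr+ OP-like cells (-1.54), and Sfrp1 in Lepr+ MSC-like (-1.35, 212 to 306 CPM in controls and 71.0 to 135 CPM in mutants) and Lepr+ OP-like cells (-0.77). The receptor gene Fzd3 was lower in Lepr+ OP-like (-1.36) and OB-like cells (-1.41), Rspo2, which encodes an enhancer of Wnt signalling, in Lepr+ OP-like cells (-1.12), and Notum, which encodes an enzyme that inactivates Wnt proteins, in OB-like cells (-0.72). No other ligand, transducer or further response gene of the list was called for genotype by edgeR, with 1, 5 and 6 tests at an unadjusted p under 0.05. For the difference between the ages, 0 of 444 were called and 14 had an unadjusted p under 0.05, against 1.79% of all tests.

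For age, 29 of the 444 were called, 15 higher and 14 lower at 13 weeks, against 1.17% of all tests called higher and 1.13% called lower, and 6.07% called in either direction in Col10a1-high chondrocytes. In OB-like cells, where Nkd2 and Lef1 fell, Apcdd1, which encodes a membrane inhibitor of the pathway, fell too (log2 fold change -0.83, adjusted p = 0.00596), and in preOB-like cells by 1.21 on the log2 scale (adjusted p = 0.00218). Ror2, which encodes a receptor for Wnt5a, fell in OB-like (-1.38, adjusted p = 0.0183) and preOB-like cells (-1.18, adjusted p = 0.0367). Dkk1, which encodes a secreted antagonist at Lrp5 and Lrp6, rose in OB-like cells from 12.7 to 16.9 CPM at 7 weeks to 22.1 to 35.5 CPM at 13 weeks (log2 fold change 0.93, adjusted p = 0.00596). Ccnd1, the gene of cyclin D1, rose there as well (1.26, adjusted p = 0.00596), as did Porcn (0.61, adjusted p = 0.0158), whose enzyme adds the lipid to Wnt proteins, and Fzd5 (0.56, adjusted p = 0.0446). In the cartilage types, where Lef1 rose, Tnfrsf11b, the gene of the RANKL decoy osteoprotegerin, rose by 2.13 in GPC-like and 1.82 in Col10a1-high cells on the log2 scale (adjusted p = 0.000445 and 0.00018), and Notum by 0.96 in GPC-like cells (adjusted p = 0.043). Response genes of the list thus moved in both directions with age, with 6 called higher and 5 lower among the 61 tests of further response genes and 2 higher and 3 lower among the 22 of the members.

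Short of the threshold but among the 3 lowest p-values of their role for age were Porcn in preOB-like cells (0.64, adjusted p = 0.0544), Tcf7l2 in preOB-like cells (0.68, adjusted p = 0.0571), Tcf7l1 in endothelial-like cells (-0.67, adjusted p = 0.0752), Ctnnbip1 in pericyte-like cells (-1.08, adjusted p = 0.193), Rspo2 (0.54, adjusted p = 0.176) and Rspo3 (-0.66, adjusted p = 0.19) in Lepr+ MSC-like cells and Rspo3 in pericyte-like cells (-1.68, adjusted p = 0.14). Of the other ligands, Wnt1 in OB-like cells (-0.53, adjusted p = 0.558) and Wnt7b in GPC-like (0.76, adjusted p = 0.47) and OB-like cells (-0.95, adjusted p = 0.629) came nearest. None of the 6 tests of other ligands was called for age by edgeR, and 0 had an unadjusted p under 0.05.

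Finally, the genes with the pattern most like each member were taken as those with the highest Pearson r of log2(CPM + 5) over the control means of the 13 types, among 9980 genes that reached 20 CPM in at least 1 type. These were Sdk2 for Wnt4 (r = 0.981), Col16a1 for Wnt5a (0.96), Ccdc80 for Wnt5b (0.942), Scx, a tendon factor, for Wnt10b (0.928), Gal3st1 for Wnt11 (0.985) and Nppc, the gene of C-type natriuretic peptide, for Wnt16 (0.994). Among the next for Wnt5a was its receptor gene Ror2 (0.957), and for Wnt16 Dpt (0.992) and Ostn (0.991), all 3 highest in Aspn-high stromal cells. Of the response genes, Axin2 was most like Olfml1 (0.964), Lef1 like 9630013D21Rik (0.967), Tcf7 like Mmp16 (0.965) and Nkd2 like Ptprd (0.972). The 13 types share their libraries, and an r can be set by a few types where both genes are high, so these values are descriptions without a test.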

How the data were processed

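The authors deposited, for each of the 8 mice, a matrix of raw UMI counts per gene and cell, made with Cell Ranger 6.1.2 on mm10 according to the submitters' processing notes, which also name Seurat 4.3. The libraries were droplet-based 10x Genomics libraries of bone cells, 1 per mouse, and no deposited file gave cell types. Cells with 200 to 6000 genes and at most 10% mitochondrial UMIs were kept. Doublets were called per library from simulated doublets (0.8% expected per 1000 barcodes) and 9.67 to 11.3% of cells were removed. The SOXC and Wnt pathway genes, 97 in all, were barred. Libraries were integrated without them with Seurat 5.3.0 (2000 variable genes, 30 components) and clustered (Leiden resolution 1, 38 clusters). Clusters were named by their marker lists, by a rule settled after the clusters were seen, so a name is a reconstruction. Clusters with few UMIs (under 33.3% of their libraries' median) were left out of the named types.

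UMIs were summed per mouse and type (at least 10 cells) and tested with edgeR 4.0.16 (TMM factors, filterByExpr, glmQLFit, glmQLFTest, R 4.3.3), with 4 group means, all 8 mice sharing a spread, and Benjamini-Hochberg adjustment over all genes in the type at 0.05. The mice are the replicates. SE is the log2 fold change divided by the square root of F. The genotype test was also run on simulated counts of better-measured genes in some of the types, without the age contrast or the replicate block. That run did not cover members as low as Wnt16 or Lef1 in OB-like cells. DESeq2 1.42.0 was an alternative, as were RLE size factors, no filter on low counts, each mouse left out, other cell filters, another clustering resolution and a replicate block. The members and gene lists were chosen with earlier results of these data known. The genes named were all members, the SOXC genes as a check, every pathway gene called for genotype and, for age, the 3 of each list with the lowest p, and the likest patterns (a pseudocount of 5). Positions come from the GENCODE annotation of GRCm38 and promoter letters from RefSeq (9 members matched).

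The labels number the mice of each group 1 and 2 but state no pairing. The study describes pairs of mutant and control sisters at each age without tying them to these numbers, so the numbers were compared in the data. Deviations from group means of the same-numbered control and mutant correlated at 0.52 (7 weeks) and 0.32 (13 weeks) in Lepr+ MSC-like, 0.52 and 0.37 in Lepr+ OP-like, 0.50 and 0.37 in preOB-like and 0.74 and 0.70 in OB-like cells, over 0.1 also in Col10a1-high, pericyte-like and endothelial-like cells, but at 0.01 at 13 weeks in GPC-like and at -0.01 and 0.03 in Aspn-high cells. Same-numbered mice of the same genotype but different ages also correlated, at 0.22 to 0.50 in the stem cell-like and osteogenic types and at 0.46 and 0.37 in Col10a1-high cells, above the 0.26 and 0.15 within an age there. The block pairs the control and mutant of an age and number for genotype, and the 7-week and 13-week mouse of a genotype and number for age. The numbers also mark depth, so these correlations do not show that a number marks sisters. Values with the replicate block are given beside a result where they change a call.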

Additional observations from a re-analysis of the deposited data

Results flagged for a closer look

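In 4 cases a member moved in opposite directions in a pair of cell types under the same contrast. Each was tested by taking, in every mouse, the difference of log2(CPM + 1) between the types and comparing it between the 4 mice of one group and the 4 of the other with a two-sided exact permutation test. Each exact permutation p was 0.0286, the smallest that 4 against 4 can give. The cases were taken because the member was called in opposite directions in the types, with or without the replicate block, so these p-values are no independent support.

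For genotype, Wnt4 in Lepr+ OP-like minus OB-like cells was at -0.53 ± 0.25 (SD, n = 4) in controls and 0.32 ± 0.33 in mutants, a difference of 0.85. For age, Wnt11 in Col10a1-high chondrocytes minus Lepr+ OP-like cells was at 1.35 ± 0.45 at 7 weeks and 3.57 ± 0.88 at 13 weeks, a difference of 2.23. Lef1 in Col10a1-high chondrocytes minus OB-like cells was at 1.11 ± 0.52 at 7 weeks and 2.70 ± 0.18 at 13 weeks, a difference of 1.59, and in GPC-like minus OB-like cells at 2.71 ± 0.68 and 4.38 ± 0.16, a difference of 1.67. The Lef1 pairs share the OB-like values. Wnt11 met the filter on low counts in Lepr+ OP-like cells mainly through the 7-week mice.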

How the results depend on the processing

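No member test with an unadjusted p under 0.05 in the main fit changed direction under any alternative. The other tests were not compared for direction. For genotype, the 2 member calls became 6 of 89 without a filter on low counts (1.12% of all tests were then called), 7 with the replicate block and 1 with a mitochondrial limit of 5%, and ranged from 0 to 5 when a mouse was left out: 0 without replicate 1 of the 7-week controls or of the 13-week mutants, 1 without either 7-week mutant or replicate 1 of the 13-week controls, and 5 without replicate 2 of the 13-week controls. For age, the 6 calls became 13 of 89 without a filter (3.34% of all tests), and ranged from 2 to 6 when a mouse was left out: 2 without replicate 2 of the mutants at either age or replicate 1 of the 13-week controls, and 3 without replicate 1 of the 7-week controls. The difference between the ages had 0 calls throughout. The replicate block added 5 calls for genotype and 3 for age and ended none, and its other values are given beside the results it changed. Without the filter, Wnt4 (0.69, adjusted p = 0.00588) and Wnt11 (-1.21, adjusted p = 0.000821) in Lepr+ MSC-like cells were called for genotype. Calls among the other 84 pathway genes were 9 for genotype (25 with the block and 25 without a filter) and 29 for age (44 with the block and 53 without a filter). CPM without TMM factors moved levels of 5 CPM or more by at most 8.13%, and 54 of 90 combinations were at or above 5 CPM on either scale. With 2 mice per group, a left-out mouse leaves a lone mouse in its group, whose spread is taken from the others. Low members limit the tests: Wnt16 rests on 8 to 61 UMIs per mouse in preOB-like cells. The share called over all genes is not given here for the fits with a mouse left out or the mitochondrial limit of 5%. The member counts of those fits thus cannot be told from a general change in calls. The causes of the changed counts were not tested.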
